A study of Rattus norvegicus with 12 samples.

Results

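Endothelial cell genes are genes whose RNA is found mainly in the cells that line blood vessels. A list of 36 such genes was followed here through 24 h of mechanical stretch of cultured heart cells. Its members were the genes of that list whose name stands beside a non-control probe in the scanner files. Of the 36, 33 had at least 1 probe under that name (42 probes). The expression of Ptprb, Ecscr and Mmrn2 was not analysed here, while the promoter windows of Ecscr and Mmrn2 were searched for motifs. A gene was tested when the scanner software marked 1 of its probes as above background on each of the 3 arrays of any 1 group; 24 members passed, among 14376 genes in all. Each of the 24 was above background on all 3 control arrays, and 22 were above background on all 12 arrays. The other 9 members on the array (Aplnr, Cd34, Cldn5, Dll4, Lyve1, Sele, Selp, Sox17 and Sox7) stayed too dim to be tested.

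The cells were neonatal rat ventricular cardiomyocytes, a primary culture taken from the hearts of newborn rats. All were kept in medium with serum for 24 h and plated on collagen-coated silicone membranes; the control group was left unstretched, and the other groups were under biaxial pulsatile stretch for 2 h, 6 h or 24 h. Each group had 3 biological replicates, each on 1 single-colour Agilent array, 12 arrays in all. The labels give 1 control group with no time of its own, so time in culture without stretch was not matched to each stretch time as far as they say, and they name no strain, sex or sorting step for the cells. All 13 markers of the labelled cell type, cardiomyocytes, were measured, with a summed scaled intensity of 1100000 to 1160000 on the control arrays. Scaled intensity here is the array signal brought to a common 75th percentile of 1400, and levels of different probes are not compared with each other. Markers of other cell types were above background too: all 10 fibroblast markers, all 10 of smooth muscle and pericytes, and 10 of 12 of leukocytes and macrophages, while Mrc1 and Cd163 were not. The RNA therefore came from a mixture, and in such bulk samples fewer cells of a type and less RNA per cell cannot be told apart.

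Endothelial cells are held together by junction proteins such as VE-cadherin and PECAM-1, respond to vascular endothelial growth factor (VEGF) and angiopoietins through receptor tyrosine kinases, and are kept in their identity by transcription factors of the ETS and SOX families. They also answer to cytokines: NF-kB then switches on adhesion molecules that catch leukocytes. In the heart they form the capillary bed and the endocardium. Several members are not restricted to them; ICAM-1 and VCAM-1 can be made by stromal and muscle cells after cytokines, and the lipid receptor S1P1 is also found on cardiomyocytes.

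The groups were not spread evenly over the slides. The control and 2 h arrays and 2 of the 6 h arrays lay on slide 1, the third 6 h array and all 24 h arrays on slide 2. Between 64.7% and 70.6% of the spots on an array were well above background. No spot was saturated.

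Changes below are log2 differences from the control group after each array was set to its own 75th percentile, with the standard error of limma's fit and p-values adjusted by the Benjamini-Hochberg method over all 14376 genes. "Rose" and "fell" are used at an adjusted p below 0.05. The 3 comparisons with the control share the same control arrays. The members chosen to show the range of behaviour in sequence were Icam1 and Vcam1, the pair that fell first, and S1pr1, which rose at every time. The 250 bases before their annotated starts, from RefSeq on build GRCr8, are printed 5′ to 3′ on the gene's strand, with capitals for letters that match an NF-kB motif. Icam1 is read from chr8:27829595-27829844 on the plus strand, Vcam1 from chr2:206742784-206743033 and S1pr1 from chr2:206314071-206314320, both on the minus strand.
Icam1: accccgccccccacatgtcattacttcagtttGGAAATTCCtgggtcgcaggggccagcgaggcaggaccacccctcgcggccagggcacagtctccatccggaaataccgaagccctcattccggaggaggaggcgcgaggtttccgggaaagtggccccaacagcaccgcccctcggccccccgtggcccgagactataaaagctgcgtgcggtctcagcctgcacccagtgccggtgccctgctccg
Vcam1: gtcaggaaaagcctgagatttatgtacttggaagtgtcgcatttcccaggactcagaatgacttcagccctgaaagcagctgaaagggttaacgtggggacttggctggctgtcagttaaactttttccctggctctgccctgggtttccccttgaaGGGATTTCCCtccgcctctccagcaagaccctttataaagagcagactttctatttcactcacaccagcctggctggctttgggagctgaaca
S1pr1: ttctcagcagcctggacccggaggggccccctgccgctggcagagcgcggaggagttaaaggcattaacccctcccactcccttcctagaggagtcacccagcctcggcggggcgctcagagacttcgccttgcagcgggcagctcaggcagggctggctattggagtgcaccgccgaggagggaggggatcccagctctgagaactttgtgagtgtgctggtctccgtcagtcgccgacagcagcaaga

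The Icam1 window holds the letters GGANTTTCC, where N is any base, read on the opposite strand from position -218 before the start. Of 33465 promoter windows of the same 250 bases, 1.08% hold that motif on either strand, and of the 21 members with an entry Icam1 alone does. The usual NF-kB consensus matched the Vcam1 window from position -93; it occurs in 3.54% of all windows and in those of 3 of the 21 members, Vcam1, Kdr and Flt1. Both motifs occur together in 158 windows. The ETS letters CCGGAAGT (3.10% of all windows, 0 of 21 members) and the AP-1 letters TGANTCA (6.34%, 1 member, Mmrn2) were searched the same way on both strands. A match is a description of the letters only, and all 4 motifs were chosen after the changes had been seen. The NF-kB consensus was added after a first search with the other motifs, in which the Vcam1 window had no NF-kB match.

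After 24 h the endothelial genes moved in both directions, mostly down. Of the 24 tested members 13 fell (Tie1, Flt1, Vcam1, Cdh5, Emcn, Kdr, Vwf, Nos3, Icam1, Tal1, Pecam1, Robo4 and Apln) and 2 rose (S1pr1 and Egfl7). Among all genes 31.7% fell and 16.2% rose at 24 h, 47.9% together, while 54.2% of the members fell and 8.33% rose. The median change of the members was -0.37 and that of all genes -0.08, and members ranged from -0.79 for Tie1 to 0.72 for S1pr1. The SD of the change was 0.38 over the members and 0.40 over all genes, so the members were spread about as widely as genes in general. The count that fell depends on how arrays are set against each other: it was 13 on the deposited series matrix, 8 with each array's median as the reference, 6 after quantile normalization, 20 with normexp background correction and 0 with the spike-in probes as the reference. Over all genes the split of calls at 24 h moved too, from 2324 higher and 4564 lower to 3338 and 2929 after quantile normalization and 5579 and 2202 with array medians. It was 4106 and 595 with the spike-in probes, 2069 and 6156 with normexp and 2822 and 3577 on the series matrix. The median change over the members also turned sign with the spike-in reference, to 0.03, while all genes then had a median of 0.32. The distance of the members' median from that of all genes was -0.29 with the 75th percentile, with the array median and with the spike-in probes, -0.28 with normexp, -0.18 after quantile normalization and -0.15 on the series matrix.

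**Figure D1:**
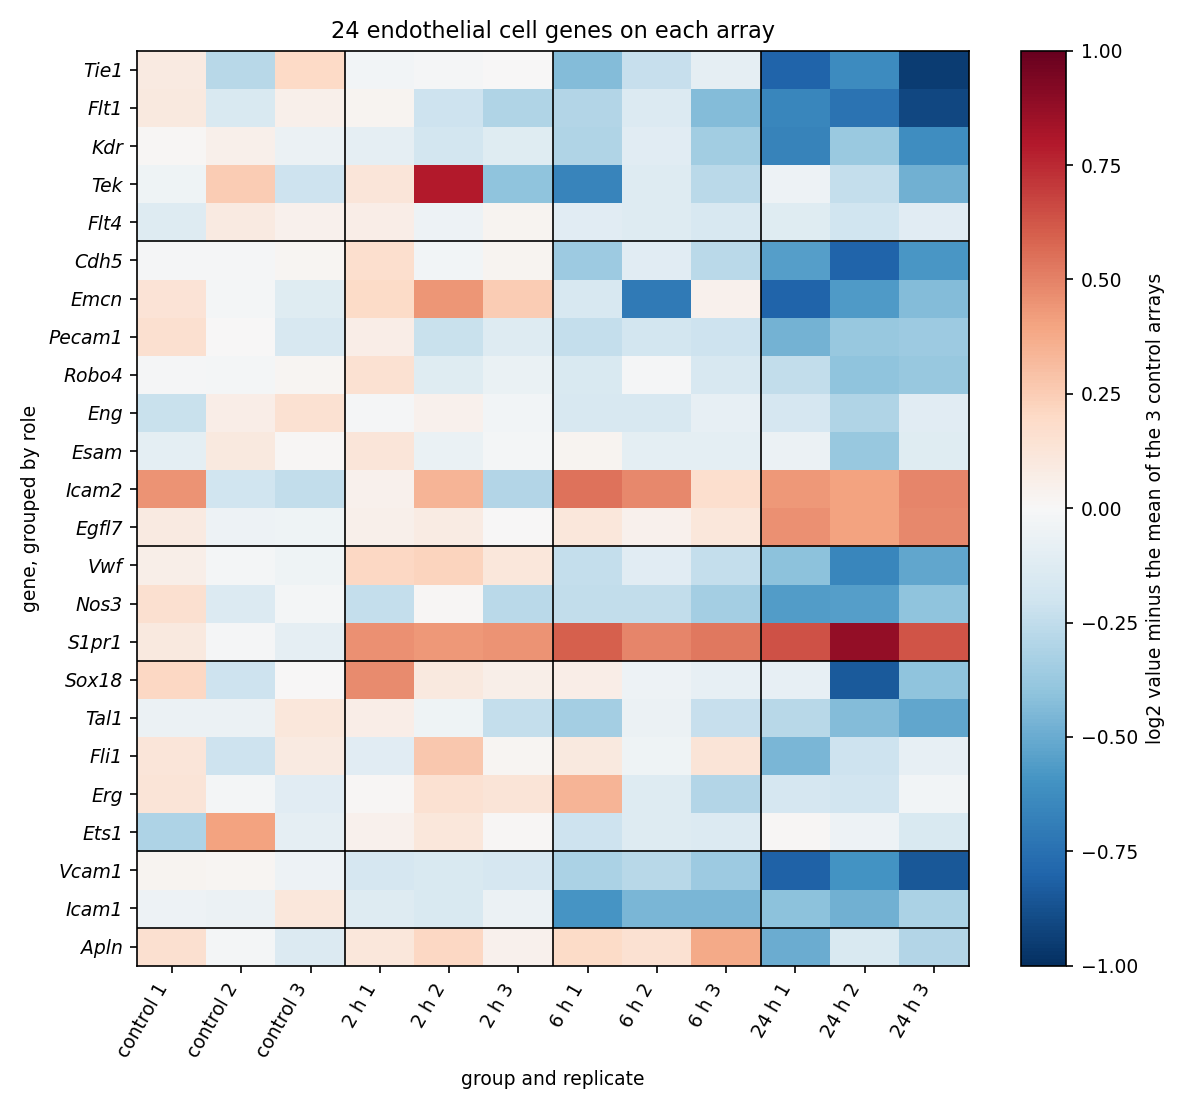
Log2 value of each of the 24 tested members on each of the 12 arrays, minus the mean of the 3 control arrays, with red for higher and blue for lower; horizontal lines part the 6 roles and vertical lines the 4 groups. S1pr1 is red on all 9 stretched arrays and Vcam1 is blue on all 9. At 24 h 21 of the 24 members are below 0 (87.5%, against 61.9% of all genes), with a median change of -0.37. Relative to the spike-in probes that median is 0.03 and the median of all genes 0.32.

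The slide bears directly on the 24 h values, since no control array shares a slide with a 24 h array. With the slide as a block, 6 of the 13 members that fell were still called: Tie1 (-1.03), Emcn (-1.08), Vcam1 (-0.69), Cdh5 (-0.60), Vwf (-0.47) and Icam1 (-0.47). Among all 14376 genes that fit called 1548 lower at 24 h, where the fit without the slide called 4564. Flt1 (-0.56, adjusted p = 0.0798), Apln (-0.52, 0.0858), Kdr (-0.41, 0.0974), Nos3 (-0.41, 0.141), Pecam1 (-0.40, 0.142), Tal1 (-0.38, 0.212) and Robo4 (-0.27, 0.231) kept their direction without passing. S1pr1 (0.74) and Egfl7 (0.41) were called in that fit too. Slide and 24 h of stretch are separated in it by the 3 arrays of 6 h alone, of which only the third lay on slide 2. The slide correction of each member thus rests on that array. For Emcn the 6 h arrays stood at -0.16, -0.71 and 0.04 against the control mean, so its value in this fit is loosely fixed.

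**Figure D2:**
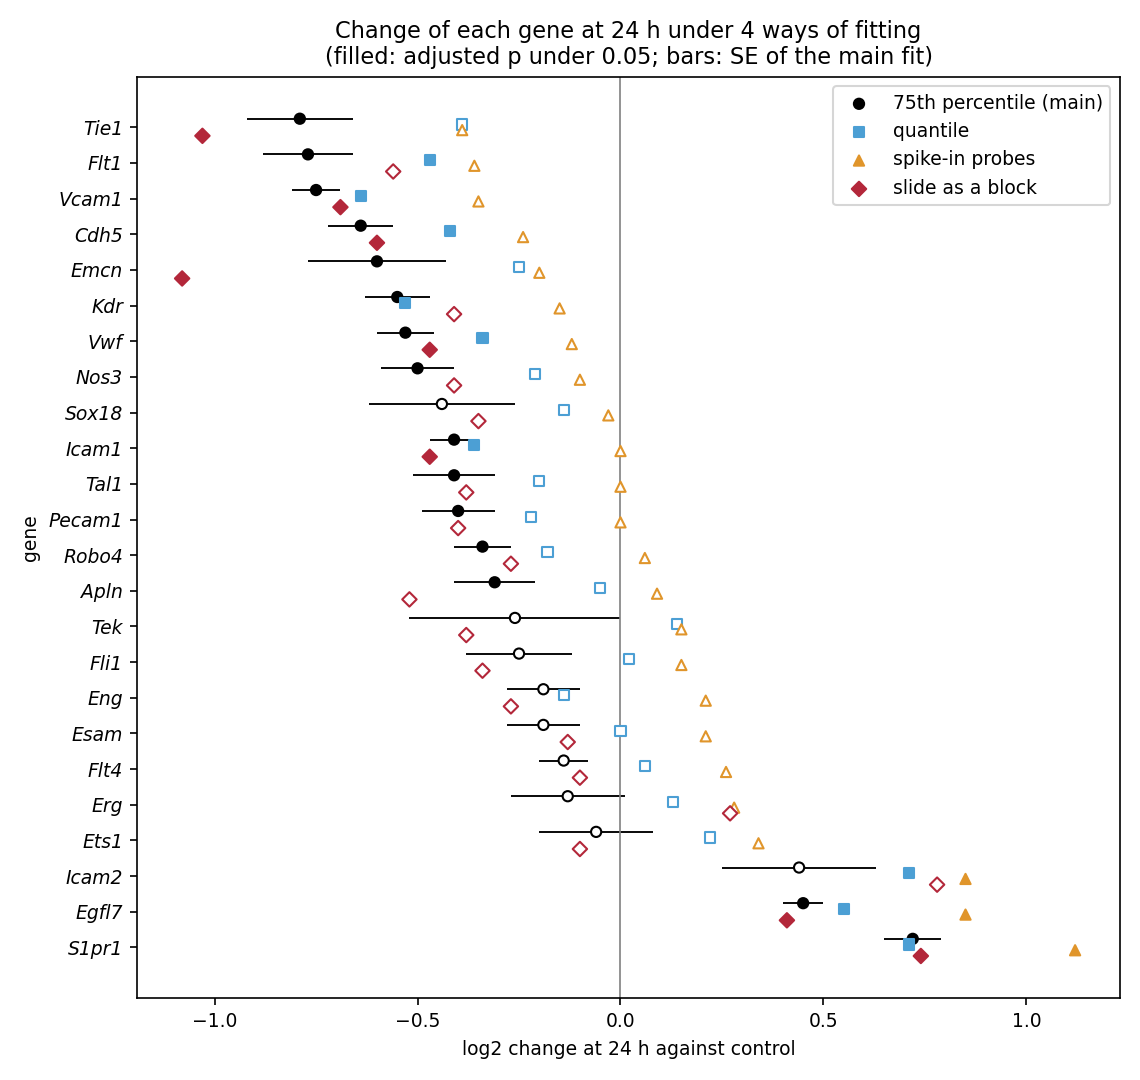
Log2 change at 24 h against the control of each tested member, ordered by its value in the fit on the 75th percentile (black circles, with SE), beside quantile normalization (blue squares), the spike-in probes as reference (orange triangles) and the slide as a block (red diamonds); filled marks have an adjusted p under 0.05. S1pr1 and Egfl7 are filled to the right of 0 in all 4, and no member is filled to the left of 0 with the spike-in reference.

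Early changes were few. At 2 h S1pr1 rose and no member fell, against 3.10% of all genes higher, 6.10% lower and 9.20% either way. The median change of the members was 0.02, and 14 of 24 were above 0 (58.3%, against 48.4% of all genes). This count was 13 on the series matrix, 17 with quantile normalization or array medians, 24 with the spike-in probes (median 0.21) and 2 with normexp (median -0.09). The 2 h values thus have no settled direction. At 6 h S1pr1 rose again and Icam1 and Vcam1 fell, against 5.06% higher, 11.7% lower and 16.8% either way among all genes. Of the 24 members 19 were below 0 (79.2%, against 62.6% of all genes), with a median of -0.18. With the spike-in reference that 6 h median was 0.28, no member fell and 5 of 24 rose (Apln, Egfl7, Fli1, Icam2 and S1pr1). All genes moved up more at 6 h with that reference: their median was 0.41, and 4891 of 14376 were called higher and 47 lower. S1pr1 was not called at 2 h with the spike-in reference, though its change there was 0.64. Groups of 3 arrays that did not overlap with the control were seen for 5 members at 2 h (20.8%, against 28.6% of all genes), 8 at 6 h (33.3%, against 39.4%) and 15 at 24 h (62.5%, against 58.9%), shares near or below the background. By the moderated F test over the 4 groups 15 of the 24 members differed, 62.5%, against 52.8% of all genes.

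The receptor tyrosine kinases for VEGF and the angiopoietins held 5 tested members, of which 3 fell at 24 h (60.0%, against 31.7% of all genes) and none was called at 2 h or 6 h. Flt1 encodes VEGF receptor 1, which binds VEGF tightly and limits its signalling. Its scaled intensity was 71.8, 60.5 and 69.6 on the control arrays, 68.5, 58.0 and 54.5 at 2 h, 54.7, 60.9 and 50 at 6 h and 42.8, 40.1 and 35.7 at 24 h. All 24 h arrays lay below every array of the other groups, and Flt1 was 1.70-fold lower than in the control (a log2 change of -0.77 with an SE of 0.11 and 3 arrays per group; adjusted p = 0.000261). Kdr encodes VEGF receptor 2, which carries most of the growth and permeability signal. It read 3560, 3660 and 3410 in the control, 3330, 3130 and 3270 at 2 h, 2880, 3280 and 2790 at 6 h and 2230, 2740 and 2310 at 24 h. The control arrays were above all stretched arrays, by a margin that was called at 24 h alone (1.47-fold lower, -0.55 ± 0.08, adjusted p = 0.000391) and missed the threshold at 6 h (-0.25 ± 0.08, adjusted p = 0.0647).

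Tie1, an orphan receptor that modulates the angiopoietin receptor, was dim throughout. It gave 32.5, 25.1 and 35 on the control arrays, 29.9, 30.3 and 30.7 at 2 h, 22.7, 26.0 and 28.7 at 6 h and 17.5, 19.8 and 15.8 at 24 h. Its 24 h arrays were the lowest, and it was 1.73-fold lower than the control (-0.79 ± 0.13, adjusted p = 0.00055), but 1 of the 3 arrays at 24 h was above background, so the low side is poorly measured. The call of Tie1 was lost after quantile normalization and with the spike-in probes as reference. Tek, the angiopoietin receptor TIE2, scattered more than any change, from 21.4 to 29.4 in the control and from 17.7 to 23.9 at 24 h (-0.26 ± 0.26, adjusted p = 0.444). Flt4, VEGF receptor 3 of lymphatic vessels, went from 124 to 145 in the control to between 118 and 126 at 24 h (-0.14 ± 0.06, adjusted p = 0.0762). Within the arrays, where the scaling drops out, Flt1 moved by -0.62 relative to Flt4 at 24 h; with the pair picked for its contrast, this value is a description.

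**Figure D3:**
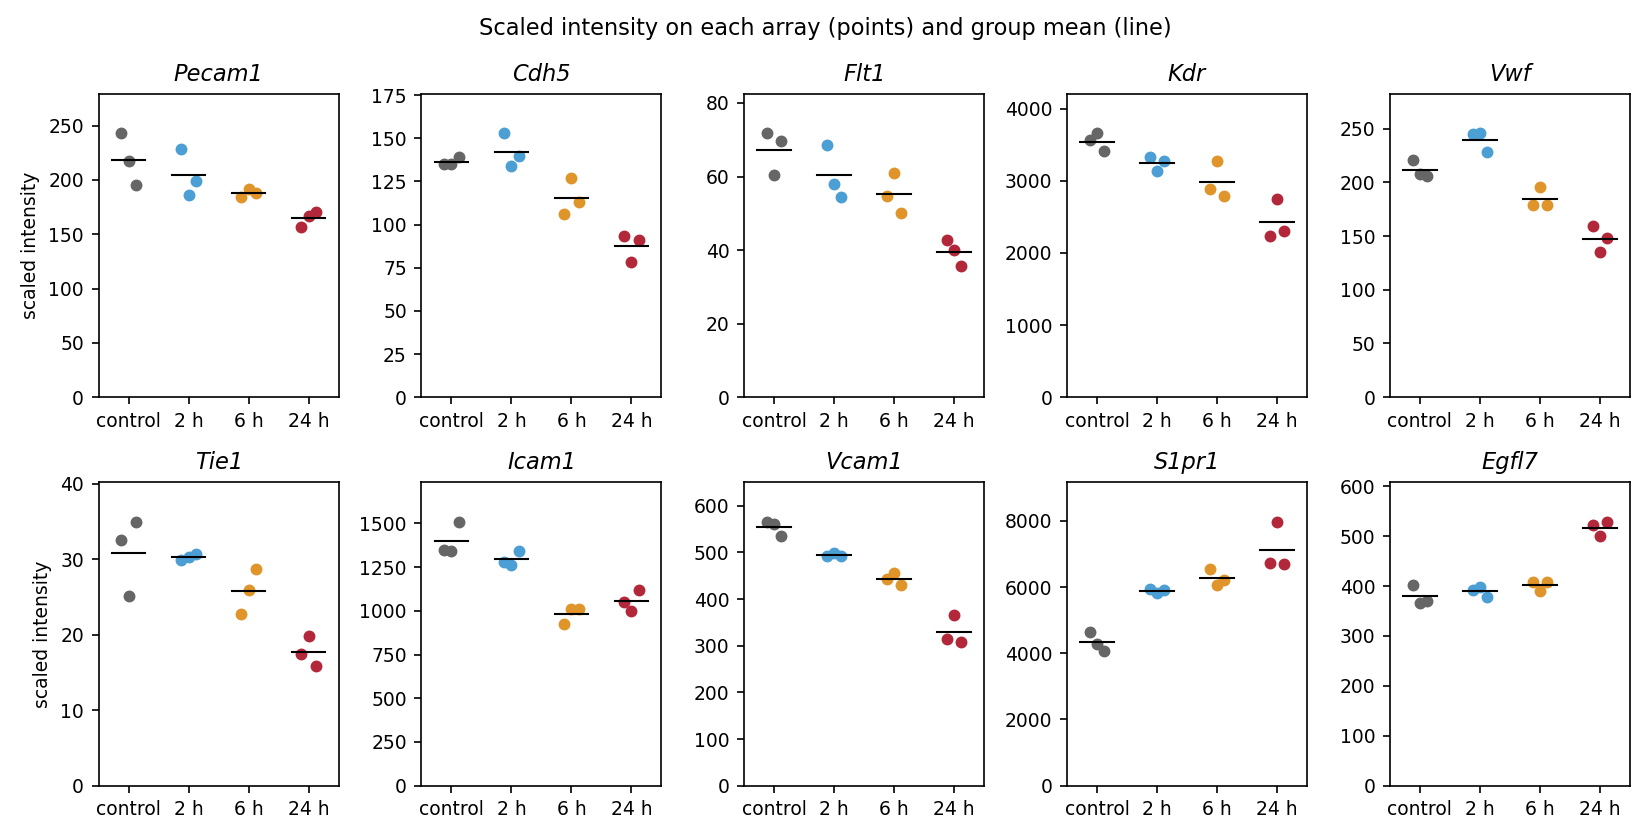
Scaled intensity (linear axis from 0, one scale per gene) of 10 members on each array by group, with points for arrays and a line for the group mean. Flt1, Cdh5 and Vwf are lowest on the 3 arrays of 24 h, Icam1 is already low at 6 h, and S1pr1 is above the control on all 9 stretched arrays; relative to the spike-in probes Pecam1 at 24 h is at 0.00 and Vcam1 at 6 h turns to 0.14.

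Of the junction, surface and matrix proteins 8 of 14 were tested, and 4 fell and 1 rose at 24 h (50% and 12.5%, against 31.7% and 16.2% of all genes), with a median of -0.27. Cdh5 encodes VE-cadherin, the adhesion protein of endothelial junctions. It read 135, 135 and 139 in the control, 153, 134 and 140 at 2 h, 106, 127 and 113 at 6 h and 93.2, 78.5 and 91.0 at 24 h. Its 6 h arrays lay below the control arrays and its 24 h arrays below those of 6 h; the fall was called at 24 h (1.56-fold lower, -0.64 ± 0.08, adjusted p = 0.00014) and not at 6 h (-0.25 ± 0.08, adjusted p = 0.0652). Between stretch times Cdh5 also fell from 2 h to 6 h (-0.31, adjusted p = 0.0418) and from 6 h to 24 h (-0.40, adjusted p = 0.00638). Pecam1, the platelet and endothelial adhesion molecule that is also made by leukocytes and platelets, gave 243, 217 and 195 in the control, 228, 186 and 199 at 2 h, 184, 192 and 188 at 6 h and 157, 167 and 170 at 24 h. The 24 h arrays were below all others, 1.32-fold lower than the control (-0.40 ± 0.09, adjusted p = 0.00364), and relative to the spike-in probes the change was 0.00. This call of Pecam1 was lost after quantile normalization and with array medians.

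Emcn encodes endomucin, a surface glycoprotein of veins and capillaries. Its values of 42.1, 37.9 and 35.2 in the control became 43.8, 51.9 and 45.6 at 2 h, 34.2, 23.5 and 39.4 at 6 h and 22.1, 25.8 and 28.3 at 24 h. The 2 h arrays were above the control arrays without passing the test (0.29 ± 0.17, adjusted p = 0.314), and the 24 h arrays were below them (1.52-fold lower, -0.60 ± 0.17, adjusted p = 0.0135). Leaving out 1 array in turn kept that call in 11 of 12 fits. Without 24 h replicate 1 the adjusted p was 0.052. The call was also lost after quantile normalization and with array medians or the spike-in probes as reference. Robo4, a guidance receptor that stabilises vessels, read 255, 253 and 261 in the control, 284, 236 and 244 at 2 h, 231, 254 and 229 at 6 h and 216, 194 and 197 at 24 h. The drop at 24 h was small and even over the arrays (1.27-fold, -0.34 ± 0.07, adjusted p = 0.00341), and it turned to 0.06 relative to the spike-in probes. It was not called after quantile normalization or with array medians.

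Egfl7 went the other way from its group. It encodes a secreted matrix-bound protein of growing vessels, and the gene also hosts a microRNA. It read 402, 366 and 369 in the control, 392, 399 and 378 at 2 h, 409, 390 and 409 at 6 h and 522, 500 and 529 at 24 h. The first 3 groups overlapped and the 24 h arrays stood above them all, 1.37-fold over the control (0.45 ± 0.05, adjusted p = 5.35e-05) and above 6 h (0.36 ± 0.05, adjusted p = 0.000574). Of the 3 members of this group without a call, Eng, a co-receptor for TGF-beta family ligands (-0.19 ± 0.09, adjusted p = 0.0919), and Esam, a tight-junction adhesion molecule (-0.19 ± 0.09, adjusted p = 0.106), had small negative values at 24 h. Icam2, a constitutive adhesion molecule, had a positive one with a wide spread in the control, 39.3 to 63.5, against 61.6 to 65.6 at 24 h (0.44 ± 0.19, adjusted p = 0.0847); it was called higher after quantile normalization and with the array median or the spike-in probes as reference. Within the arrays Egfl7 gained 1.09 on Cdh5 at 24 h, with stretched arrays from 1.01 to 1.2 and control arrays from -0.06 to 0.10; this pair too was picked for its contrast, and the value is a description.

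The von Willebrand factor gene Vwf, whose protein tethers platelets and is stored in endothelial granules, had 3 probes above background. The probe used read 221, 208 and 206 in the control, 245, 246 and 228 at 2 h, 179, 196 and 179 at 6 h and 159, 135 and 148 at 24 h. The 2 h arrays lay above the control arrays without passing the test (0.18 ± 0.07, adjusted p = 0.13), and those of 6 h and 24 h lay below them, with a call at 24 h (1.44-fold lower, -0.53 ± 0.07, adjusted p = 0.000128). Tested on their own, the other 2 probes gave -0.88 (adjusted p = 0.00323) and -1.02 (adjusted p = 0.00684) at 24 h, and the first of them was already lower at 6 h (-0.95, adjusted p = 0.00871), where the probe used was at -0.20 without passing. The mean of the 3 probes was called at 6 h (-0.51, adjusted p = 0.0142) and at 24 h (-0.81, adjusted p = 0.000275). From 2 h to 6 h the probe used fell by 0.38 on the log2 scale (adjusted p = 0.0109). Nos3, the endothelial nitric oxide synthase, gave 65.8, 53.3 and 58.0 in the control, 49.9, 59.4 and 48.7 at 2 h, 49.5, 49.6 and 46.5 at 6 h and 40.0, 40.2 and 44.6 at 24 h. The arrays of 6 h and 24 h were below the control arrays, with a call at 24 h (1.42-fold lower, -0.50 ± 0.09, adjusted p = 0.00133). That call was lost after quantile normalization and with the spike-in probes as reference.

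S1pr1 encodes S1P1, the receptor through which the blood lipid sphingosine-1-phosphate tightens endothelial junctions. It was the one member called at all 3 times. Its scaled intensity was 4640, 4280 and 4060 in the control, 5950, 5830 and 5910 at 2 h, 6560, 6060 and 6230 at 6 h and 6730, 7980 and 6700 at 24 h. Every stretched array was above every control array. The rise was 1.37-fold at 2 h (0.45 ± 0.07, adjusted p = 0.00602), 1.45-fold at 6 h (0.54 ± 0.07, adjusted p = 0.00133) and 1.65-fold at 24 h (0.72 ± 0.07, adjusted p = 2.98e-05), and 24 h was above 2 h (0.27, adjusted p = 0.012). With the spike-in reference the 2 h value was larger, at 0.64, but missed the threshold (adjusted p = 0.0745). Within the arrays S1pr1 gained 0.61 on Vcam1 at 2 h, 0.86 at 6 h and 1.47 at 24 h, and at 24 h it gained 1.49 on Flt1. These pairs were picked after their opposite changes had been seen, so the differences describe the spread among members and support nothing further.

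The cytokine-inducible adhesion molecules Icam1 and Vcam1 were the members that fell before 24 h; with the mean of a gene's kept probes Vwf did so too. Icam1 read 1350, 1340 and 1510 in the control, 1280, 1260 and 1340 at 2 h, 926, 1010 and 1010 at 6 h and 1050, 998 and 1120 at 24 h. It overlapped with the control at 2 h, was 1.42-fold lower at 6 h (-0.51 ± 0.06, adjusted p = 0.00116) and stayed 1.32-fold lower at 24 h (-0.41 ± 0.06, adjusted p = 0.000537), and no difference was called between 6 h and 24 h. Relative to the spike-in probes Icam1 was at -0.05 at 6 h (adjusted p = 0.826) and 0.00 at 24 h (adjusted p = 0.996). Vcam1 gave 566, 560 and 535 in the control, 492, 498 and 492 at 2 h, 444, 456 and 430 at 6 h and 315, 366 and 308 at 24 h. Its groups did not overlap at any time, and each later group lay below the one before; the change was -0.16 ± 0.06 at 2 h (adjusted p = 0.136), -0.32 ± 0.06 at 6 h (adjusted p = 0.00763) and -0.75 ± 0.06 at 24 h (adjusted p = 7.79e-06), and the 6 h value turned to 0.14 relative to the spike-in probes. From 6 h to 24 h Vcam1 fell by 0.43 (adjusted p = 0.000757). Within the 8 arrays of slide 1, where control, 2 h and 2 of the 6 h arrays stand together, Icam1 (-0.53, adjusted p = 0.0115) and Vcam1 (-0.30, adjusted p = 0.0182) were lower at 6 h and S1pr1 was higher (0.55, adjusted p = 0.00932). The selectins Sele and Selp, the other leukocyte adhesion molecules of the list, did not reach the background limit for testing.

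Among the transcription factors 5 of 7 were tested and 1 fell at 24 h (20.0%, against 31.7% of all genes). Tal1, a helix-loop-helix factor of blood and early endothelium, read 135, 135 and 152 in the control, 148, 136 and 119 at 2 h, 111, 135 and 120 at 6 h and 116, 105 and 98.2 at 24 h. Its 24 h arrays were below the control arrays (1.33-fold lower, -0.41 ± 0.10, adjusted p = 0.00656), and its further probe was lower too (-0.36, adjusted p = 0.0224). The call was lost with the array median (-0.21, adjusted p = 0.0835) and after quantile normalization (-0.20, adjusted p = 0.0938), and the change was 0.00 relative to the spike-in probes (adjusted p = 0.99). Sox18 was lower at 24 h than at 2 h (-0.65, adjusted p = 0.0126) but was not called against the control (-0.44 ± 0.18, adjusted p = 0.0657), with arrays from 34.5 to 58.3 at 24 h and from 53.3 to 71.3 in the control. The ETS factors Erg (-0.13 ± 0.14), Fli1 (-0.25 ± 0.13) and Ets1 (-0.06 ± 0.14) were not called at 24 h. A further probe of Erg passed when tested on its own (-0.34, adjusted p = 0.0485), so the probes of Erg disagree on the call.

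Apln, the peptide ligand apelin, gave 82.6, 72.8 and 67.1 in the control, 79.6, 85.6 and 75.8 at 2 h, 84.3, 82.2 and 95.9 at 6 h and 52.2, 66.7 and 60.4 at 24 h. It was 1.24-fold lower than the control at 24 h (-0.31 ± 0.10, adjusted p = 0.029) and more clearly below 6 h (-0.55 ± 0.10, adjusted p = 0.00352). This is the weakest of the calls: it held in 8 of 12 fits that leave out 1 array, missed the threshold when either the first or the second control array was dropped (adjusted p = 0.104 and 0.0581) and when replicate 1 or replicate 3 of 24 h was (0.108 and 0.0569), was lost when the percentile was taken over probes in place of spots (adjusted p = 0.0576), and turned to 0.09 relative to the spike-in probes. Its receptor gene Aplnr was above background on 3 of 12 arrays, the tip-cell Notch ligand Dll4 on 6, Sox7 on 2, Cd34 and Cldn5 on 1 each, and Lyve1, Selp and Sox17 on none. Of these, Cldn5 (the tight-junction protein claudin-5), Cd34 and Sox17 are much used to mark endothelial cells.

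Between stretch times, 3 members fell and none rose from 2 h to 6 h (Cdh5, Icam1 and Vwf). That is 12.5% called, against 10.5% of all genes (977 of 14376 lower and 529 higher). From 6 h to 24 h 8 fell (Apln, Cdh5, Flt1, Kdr, Robo4, Tie1, Vcam1 and Vwf) and Egfl7 rose. Here 37.5% of the members were called, against 25.0% of all genes (2225 lower and 1376 higher). From 2 h to 24 h 14 fell and 2 rose, 66.7% called, against 48.2% of all genes (4343 lower and 2584 higher).

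The brightness of the probes moved with the result. Of the 24 members 14 were in the dimmest of 4 equal bins of all genes tested, 6 in the next bin and 2 in each of the brighter ones. In the dimmest bin the median change of all genes at 24 h was -0.29 and 40.1% fell, and its members had a median of -0.36 with 7 of 14 lower. In the next bin all genes had a median of -0.11 with 38.2% lower, and its members a median of -0.37 with 4 of 6 lower. The brightest bin was near 0 (-0.01, 21.0% lower). How much of the members' fall goes with their dimness was not tested.

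Other genes tied to endothelium were counted in the same fit. Of 28 further endothelial genes 17 were tested, and at 24 h 10 fell (58.8%, against 31.7% of all genes), none rose and the median was -0.32. The largest falls were those of Palmd (-0.71), the homeobox gene Hhex (-0.57), Plvap, which forms the diaphragms of fenestrated capillaries (-0.49), and Tmem204 (-0.46). At 6 h 3 of the 17 were lower (17.6%, against 11.7%) and at 2 h none was called. Of 11 ligands and co-receptors for VEGF and angiopoietin receptors 9 were tested, and at 24 h 5 fell (55.6%, against 31.7% of all genes) and none rose (median -0.47): Vegfd (-0.92), Angpt1, the activating ligand of TIE2 (-0.81), the co-receptor Nrp1 (-0.53) and Pgf (-0.47) led. Angptl4 was the 1 gene of these 9 that was higher at 2 h (0.46) and at 6 h (0.59). That is 11.1%, against 3.10% and 5.06% of all genes. Vegfd was the 1 that was lower at 6 h (-0.65), 11.1% against 11.7%. In the Notch pathway 4 of 11 fell at 24 h, 36.4% and so near the 31.7% of all genes, and none rose (median -0.14): Jag2 (-0.67), Hey1 (-0.52), Jag1 (-0.39) and Rbpj (-0.26). At both 2 h and 6 h Jag1 and Notch4 were lower and Notch2 was higher among the 11. The share lower was 18.2%, against 6.10% of all genes at 2 h and 11.7% at 6 h. The share higher was 9.09%, against 3.10% and 5.06%.

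Genes of NF-kB feedback and its targets, which include the cytokines that act on Icam1 and Vcam1, went both ways: of 14 tested, 6 rose at 24 h (42.9%, against 16.2% of all genes) and 4 fell (28.6%, against 31.7%), with a median of 0.14. Tnf (-2.43) and Il1b (-1.75) fell, while the chemokines Cxcl1 (0.88) and Cx3cl1 (0.72) rose. At 6 h 3 of the 14 were lower (21.4%, against 11.7%) and none higher. Whether the cytokines and the adhesion molecules are linked was not tested.

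Markers of other cell types moved at 24 h as well, against 31.7% of all genes lower and 16.2% higher, so a fall was not a feature of the endothelial list alone. The 4 endothelial markers Pecam1, Cdh5, Flt1 and Kdr together went from 3810 to 4080 on the control arrays, 3510 to 3780 at 2 h and 3140 to 3660 at 6 h to 2520 to 3030 at 24 h, mostly through Kdr. All 10 leukocyte markers fell at 24 h with a median of -1.44, and their sum went from 23500 to 23600 in the control to between 8180 and 9520; Adgre1 (-2.57) and C1qa (-2.49) led. Of the fibroblast markers 8 of 10 fell (median -0.34; sum from 236000 to 253000 in the control, 170000 to 197000 at 24 h), with Postn at -0.81. Of the cardiomyocyte markers 10 of 13 fell and 2 rose (median -0.33; sum 924000 to 999000 at 24 h), with Ttn at -0.64 and Nppa at 0.69. Smooth muscle and pericyte markers had 5 lower and 2 higher of 10 (median -0.36). Their sum was 86900 to 89300 in the control and 86600 to 88900 at 24 h. It is carried mainly by Des (control mean 38100, change 0.24), Tagln (27200, -0.31) and Cspg4 (14800, 0.04). The sum thus hardly reflects the dimmer Myh11 (-1.07), Rgs5 (-0.72), Acta2 (-0.53) and Pdgfrb (-0.44), which fell, and Cnn1 (0.60), which rose. Pf4, the 1 platelet marker measured, fell by 1.13; Hapln1 was the 1 of 3 endocardial markers and Prox1 the 1 of 3 lymphatic markers that fell, and the red blood cell marker measured was not called at 24 h. The part of cell composition in the endothelial changes was not tested.

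**Figure D4:**
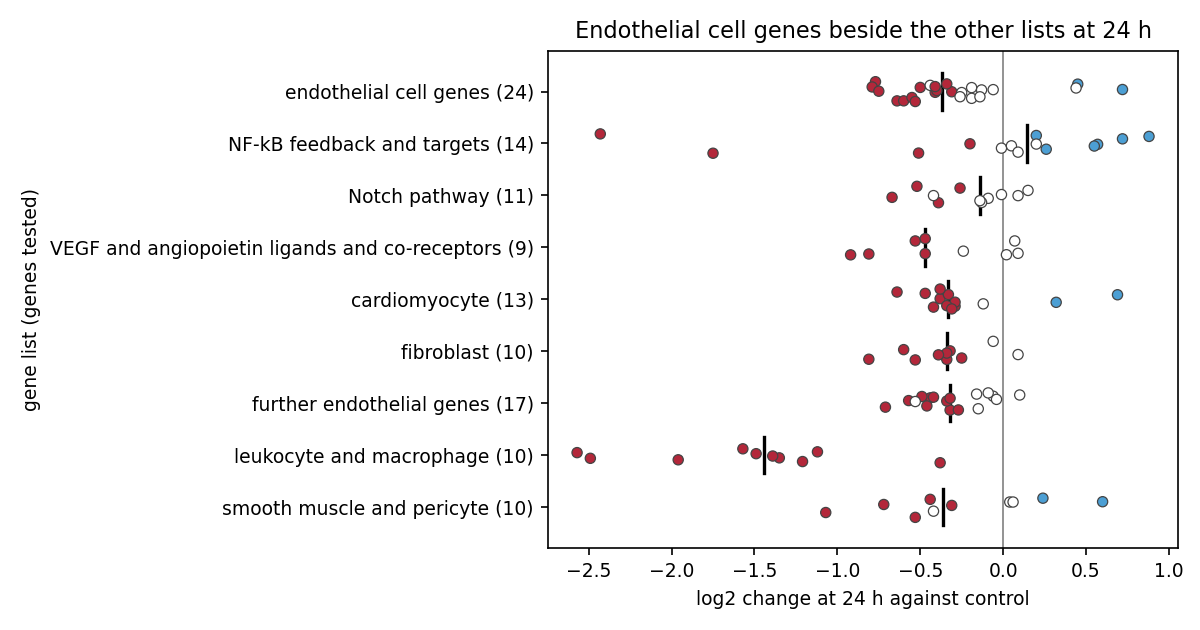
Log2 change at 24 h against the control for each tested gene of the endothelial list and of 8 other lists, one row per list with the number of genes tested; red points fell, blue points rose, open points were not called, and the black bar is the list's median. The endothelial genes (median -0.37) lie close to cardiomyocyte (-0.33), fibroblast (-0.34) and smooth muscle (-0.36) markers and well above the leukocyte markers (-1.44). With the spike-in reference the endothelial median turns to 0.03 and that of all genes from -0.08 to 0.32. That reference moves all genes of an array by the same amount, so every list shifts with it.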

How the data were processed

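The 12 arrays carried Cy3-labelled total RNA. The image software was Feature Extraction 11.0.1.1 per the file headers and 10.7.3.1 per the submitters' processing notes. The processed signal is a background-subtracted intensity, per the file headers, and the spot flags are other values deposited beside it. The series matrix holds intensity values deposited by the authors; no source used here gives its scaling.

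From the log2 processed signal the 75th percentile over all non-control spots of an array was subtracted; outlier spots were left out and spots of a probe averaged. A probe was kept if well above background on all 3 arrays of a group (18997 of 30367 probes), and the brightest kept probe stood for its gene. Groups were compared with limma 3.58.1 (lmFit, eBayes) in R 4.3.3 on all 12 arrays, two-sided, with Benjamini-Hochberg adjustment; the script was checked on simulated data. The number of arrays limits the precision.

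The percentile was taken in 3 ways with results seen each time (over all spots, over spots without outliers, over probes); the first was kept because it matched earlier processing of these data. The members and lists were chosen with earlier results of these data known. Members called against the control, and Pecam1, Cdh5, Flt1 and Kdr, are given array by array; of other lists, up to 4 genes with the largest called change. Same-numbered replicates did not deviate together (correlations from -0.11 to 0.10), so the numbers were not used as pairs. Alternatives were other scalings and backgrounds, no filter, probe averages, slide or replicate blocks, and leaving out each array.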

Additional observations from a re-analysis of the deposited data

How the results depend on the processing

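S1pr1 at 6 h and 24 h and Egfl7 at 24 h kept their call under every alternative run. With the spike-in reference 184 genes were called at 2 h and 4938 at 6 h, no member was higher at 2 h (0), 5 were higher at 6 h, and none was lower at 6 h or 24 h (0 and 0); Vcam1 at 6 h turned to 0.14, and at 24 h Apln turned to 0.09, Robo4 to 0.06 and Pecam1 to 0, while Icam1 and Tal1 reached 0 without a change of sign, and the cause was not tested. Array medians gave 2 members higher at 6 h and 8 lower at 24 h, quantile normalization 6 lower at 24 h, normexp 5 lower at 6 h and 20 lower at 24 h, and the series matrix 2 higher at 6 h. The split of all genes at 6 h was 728 higher and 1680 lower. It became 1064 and 1040 after quantile normalization, 2074 and 742 with array medians and 4891 and 47 with the spike-in probes. With normexp it was 609 and 1840, and on the series matrix 906 and 1354. At 2 h, 445 and 877 became 668 and 593 with array medians and 139 and 45 with the spike-in probes. The mean of a gene's kept probes added Vwf at 6 h (-0.51). Without the filter 644 genes were called at 2 h and 1385 at 6 h. With only the groups compared, 463 genes were called at 2 h. On slide 1 alone, with 8 arrays, 813 were called at 2 h and 1350 at 6 h. With the slide as a block 1600 were called at 6 h and 2045 at 24 h, and 6 members were lower at 24 h.

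Leaving out 1 array at a time gave 665 to 1365 genes called at 2 h, 1195 to 2536 at 6 h and 5773 to 7070 at 24 h. Members lower were 0 to 1 at 2 h, 2 to 5 at 6 h and 12 to 14 at 24 h, and members higher 1, 1 to 2 and 2 to 3. Members lower at 6 h were 4 without control replicate 1 (Eng and Flt4 added), control replicate 2 (Nos3 and Tie1) or 6 h replicate 2 (Cdh5 and Kdr), and 5 without 24 h replicate 2 (Cdh5, Kdr and Vwf), an array that enters this comparison through the shared spread alone. Without control replicate 1 Icam2 was higher at 6 h (0.62) and at 24 h (0.66).

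With the percentile over probes, a way added after seeing the data, 12 members were lower at 24 h, and the split of all genes at 6 h was 1212 higher and 1110 lower and at 24 h 3034 and 3746. Spots without outliers gave 13. A replicate block on the shared numbers gave 14 members lower at 24 h, with Sox18 added (adjusted p = 0.0112). It changed no other call of a member against the control. The sample titles do not say whether equal numbers pair the samples. Dim probes limit the list: 9 members on the array could not be tested, and Tie1 at 24 h was above background on 1 of 3 arrays.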
